A study of Mus musculus with 6 samples.

Results

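The 8 genes described here, Klf2, Klf4, Nos3, Thbd, Apold1, Depp1, Adamts9 and Ctla2a, were selected by symbol from the 32285 genes of the single-cell count tables and all 8 were found, each under 1 gene identifier. They were chosen from earlier results of these same data. They are read here mainly in endothelial cells, the cells that line blood vessels. A barcode counted as endothelial when Cldn5, Flt1, Pecam1 and Cdh5 together gave at least 5 unique molecular identifiers (UMIs, the count of captured RNA molecules) and at least 2 times the marker UMIs of any other cell class, after barcodes with under 300 genes or over 20% mitochondrial UMIs were left out. This kept 1663 endothelial barcodes of 6323 barcodes that passed the filter and 7433 deposited.

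Cells came from cortex and subventricular zone of mice aged 8 to 12 weeks, in 2 libraries per genotype. The genotype labels are Cx43GlastiKO (here GlastiKO), Cx43ECiKO (here ECiKO) and the control Cx43flox/flox, whose floxed alleles of Gja1, the gap junction gene for connexin 43, are named in the control's own label. The titles name the knockout libraries Glast and Vecad, which the labels do not spell out as Cre lines, nor do they state an inducing agent, its timing or which part of Gja1 is removed. Tissue was digested for 30 min at 37 °C, and CD45- cells were sorted into CD31+Glast- endothelial cells and Glast+CD31- neural stem and progenitor cells, so other cell types in the libraries passed a sort that was meant to leave them out. The labels call the 2 libraries of each genotype biological replicates, without saying whether each holds 1 animal.

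The libraries numbered 1 were nearly all endothelial and those numbered 2 were mostly glial. Endothelial barcodes numbered 438 and 61 in libraries labelled GlastiKO, 381 and 20 in those labelled ECiKO and 720 and 43 in the controls. The summed endothelial UMIs were lowest in ECiKO replicate 2 (37514) and highest in control replicate 1 (2599093), and replicate 2 values rest on few molecules. Only 5 barcodes were shared between any libraries and 0 of them were endothelial. Summed endothelial markers lay between 11708 and 14261 CPM (UMIs of a gene or list per 1000000 UMIs of the class in a library) in every library's endothelial barcodes, and oligodendrocyte markers between 6.39 and 9.60 CPM in libraries numbered 1 but 190.3 to 506 CPM in those numbered 2. Gja1 did not follow the labels: endothelial barcodes held 228 and 213 CPM in libraries labelled ECiKO, 144 and 133 CPM in those labelled GlastiKO and 93.1 and 110.3 CPM in controls. Astroglial barcodes held 2510 CPM of Gja1 in GlastiKO replicate 2, 2488 CPM in ECiKO replicate 2 and 2566 CPM in control replicate 2. Without the position of the deletion, a 3′ count cannot show whether the allele was lost, and the genotypes below are those of the labels.

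Blood flowing over the endothelium is sensed at the cell surface and junctions, and steady laminar flow activates a kinase cascade through MEKK3 and ERK5 that releases MEF2 transcription factors onto the Klf2 and Klf4 genes. KLF2 and KLF4 are zinc finger factors that keep endothelium quiescent, anticoagulant and dilated, in part by raising Nos3, the endothelial nitric oxide synthase, and Thbd, thrombomodulin, the receptor that turns thrombin toward activation of protein C. In culture, both factors also respond within minutes to hours to serum, cytokines and other stimuli, as immediate early genes do. Apold1 encodes an early response protein of endothelial cells, Depp1 a protein induced by progesterone and by FOXO factors, Adamts9 a secreted protease of the extracellular matrix and Ctla2a an inhibitor of cathepsin-type cysteine proteases.

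The promoters of Klf2, Klf4 and Apold1 are shown because these 3 genes varied together from cell to cell with immediate early genes, as described below. RefSeq (GRCm38.p6) held a promoter for 6 of the 8 members, named here from 250 bases before to 50 bases after the start of the gene. Capitals mark matches to 5 motifs searched on both strands: CACCC (the KLF core; GGGTG on the other strand), AP-1 (TGANTCA with C or G at N), CRE (TGACG followed directly by TCA), MEF2 and the CArG box. No match overlapped another. The Klf2 sequence is chr8:72318812-72319111 on the plus strand, that of Klf4 is chr4:55532426-55532725 on the minus strand and that of Apold1 is chr6:134981751-134982050 on the plus strand.
Klf2: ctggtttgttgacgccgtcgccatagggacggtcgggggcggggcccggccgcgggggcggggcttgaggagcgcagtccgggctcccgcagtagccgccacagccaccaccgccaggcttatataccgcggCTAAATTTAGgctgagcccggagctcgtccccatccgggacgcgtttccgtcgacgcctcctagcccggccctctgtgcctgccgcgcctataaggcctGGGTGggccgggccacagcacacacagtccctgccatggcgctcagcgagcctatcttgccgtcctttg
Klf4: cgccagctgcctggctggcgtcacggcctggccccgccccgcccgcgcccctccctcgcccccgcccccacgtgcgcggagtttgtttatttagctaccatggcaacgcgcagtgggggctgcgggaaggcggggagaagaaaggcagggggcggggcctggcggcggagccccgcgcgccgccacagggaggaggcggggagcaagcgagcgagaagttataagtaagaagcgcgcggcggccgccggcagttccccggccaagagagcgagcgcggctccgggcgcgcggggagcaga
Apold1: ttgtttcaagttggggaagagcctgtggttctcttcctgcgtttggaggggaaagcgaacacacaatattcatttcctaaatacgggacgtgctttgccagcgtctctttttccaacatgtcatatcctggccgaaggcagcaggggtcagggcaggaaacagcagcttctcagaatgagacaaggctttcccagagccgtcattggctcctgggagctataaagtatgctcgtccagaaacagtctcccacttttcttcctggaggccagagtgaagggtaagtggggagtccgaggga
The Klf2 promoter held a MEF2 match at -118 from the start, a match that 0.557% of 32851 RefSeq promoters of this length held, and 1 CACCC match at -19, which 57.5% of promoters held. Klf4 and Apold1 had no match to any of the 5 motifs in this window. Of the others, Depp1 held CACCC at -192 and -116, Adamts9 held it at -127, and Ctla2a held an AP-1 match at -129, as did 5.20% of all promoters. A match is a run of letters and not a shown binding site.

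In GENCODE M21 on GRCm38, Klf2 (ENSMUSG00000055148) lies on chromosome 8 at 72319033 to 72321656 on the plus strand with 3 exons, and Klf4 (ENSMUSG00000003032) on chromosome 4 at 55527143 to 55532466 on the minus strand with 5 exons. Nos3 (ENSMUSG00000028978) spans 24364810 to 24384474 on chromosome 5 with 26 exons on the plus strand, and Thbd (ENSMUSG00000074743) has 1 exon at 148404466 to 148408188 on chromosome 2 on the minus strand. The next 3 members are on chromosome 6: Adamts9 (ENSMUSG00000030022), 92772699 to 92943492 with 40 exons on the minus strand, Depp1 (ENSMUSG00000048489), 116650609 to 116652794 with 2 exons on the plus strand, and Apold1 (ENSMUSG00000090698), 134981718 to 134986836 with 2 exons on the plus strand. Ctla2a (ENSMUSG00000044258) lies on chromosome 13 at 60934155 to 60936625 on the minus strand with 5 exons. Genes of the count tables overlap Nos3, Depp1 and Adamts9 only on the opposite strand. Ctla2a shares 11.45% of its 50-base words with its paralog Ctla2b, so its UMIs could in part be split or lost between them.

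The members were chosen as endothelial genes, so their levels across cell classes are a description. All but Adamts9 were found mainly in vascular cells. Classes were gated by marker UMIs in the same way as endothelium, and a library entered with at least 20 barcodes of a class. Klf2 had 1061 to 1873 CPM in endothelial barcodes of the 6 libraries, against 289 to 420 CPM in mural barcodes (pericytes and smooth muscle) of 3 libraries and at most 1.78 CPM in astroglial, oligodendrocyte, neuroblast or ependymal and choroid plexus barcodes. Ctla2a had 586 to 1274 CPM in endothelial barcodes and at most 28.8 CPM in any other class. Nos3 had 186 to 243 CPM in endothelial barcodes, against 15.4 to 27.2 CPM, from 14 UMIs, in ependymal and choroid plexus barcodes of 2 libraries, at most 17.3 CPM in mural barcodes and at most 1.84 CPM in the others. For these 3 genes, every endothelial library was above every library of every other class with enough barcodes.

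Depp1 had 26.7 to 157 CPM in endothelial barcodes and 1 UMI in all other classes together, so it was found almost only in endothelium. Its lowest value, in ECiKO replicate 2, rested on 1 UMI and lay under the floor of 80.0 CPM for 3 counts. No other class of ECiKO replicate 1 had 20 barcodes for a comparison. The remaining 4 members were also found elsewhere. Apold1 was also high in mural barcodes: endothelial values spread from 80.0 to 820 CPM, against 304 to 444 CPM in mural barcodes, so the ranges overlapped. In control replicate 1 its mural level was 139% of the endothelial level (62 mural UMIs). It was 54.2% in GlastiKO replicate 1 (71 mural UMIs) and 71.9% in GlastiKO replicate 2 (58 mural UMIs). Klf4 had 320 to 1044 CPM in endothelial barcodes, against 42.0 to 247 CPM in mural barcodes and 2.75 to 18.5 CPM, from 229 UMIs, in oligodendrocytes. Thbd had 153 to 358 CPM in endothelial barcodes, against 25.04 to 138 CPM in mural barcodes and 0 UMIs in astroglia, oligodendrocytes, neuroblasts and ependymal or choroid plexus barcodes. Adamts9 was not endothelial-restricted: astroglial barcodes held 27.6 to 33.5 CPM from 143 UMIs in 3 libraries, inside the endothelial range of 0 to 109 CPM.

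**Figure D1:**
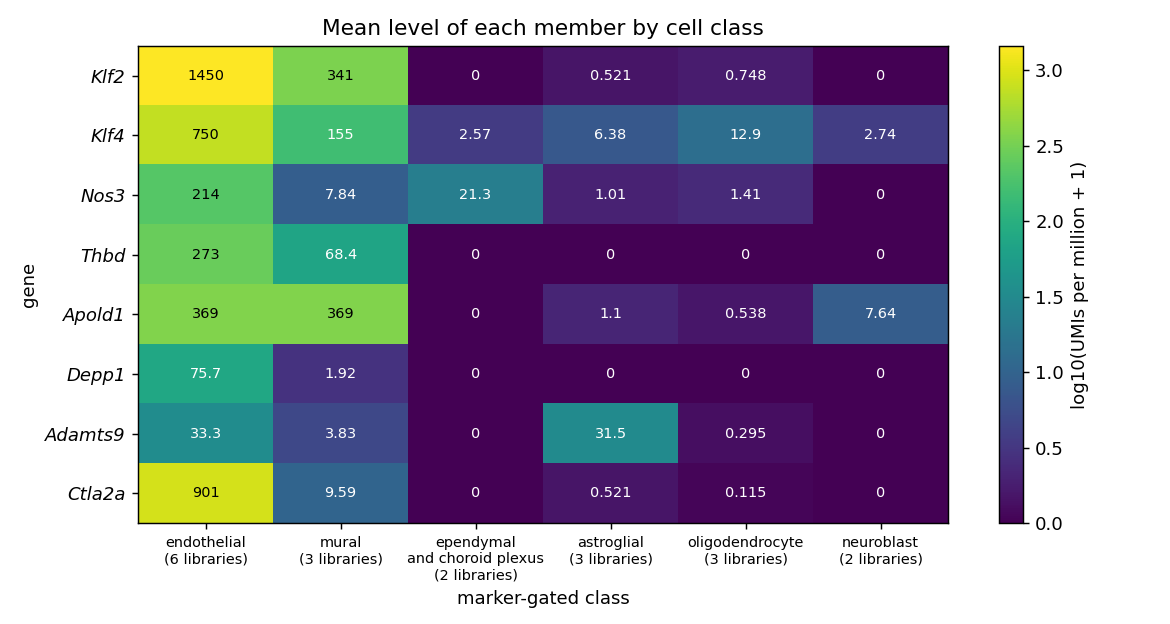
Rows are the 8 genes and columns are marker-gated classes. Each cell prints the mean CPM over the libraries with at least 20 barcodes of the class, whose number is given under the class, and the colour is log10(CPM + 1). Endothelial means lead in every row except that Apold1 is matched by mural barcodes (369 CPM in each) and Adamts9 nearly so by astroglia (33.3 CPM in endothelium and 31.5 CPM in astroglia). These means cover different libraries. Within GlastiKO, ECiKO and control replicate 2, Adamts9 had 14.3, 0 and 34.0 CPM in endothelial barcodes, from 3, 0 and 4 UMIs. In astroglial barcodes of the same libraries it had 33.5, 27.6 and 33.4 CPM. The endothelial UMIs are too few to rank these classes for Adamts9. Within GlastiKO replicates 1 and 2, mural Apold1 was 54.2% and 71.9% of endothelial Apold1, and in control replicate 1 it was 139%.

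Within endothelium, detection was broad for the transcription factors and sparse for Depp1 and Adamts9. After each barcode was thinned to 1000 UMIs, which left out 17 barcodes of GlastiKO replicate 1, 47 of ECiKO replicate 1 and 40 of control replicate 1, Klf2 was detected in 59.1% of barcodes of GlastiKO replicate 1, 53.3% of ECiKO replicate 1 and 52.9% of control replicate 1. Without thinning the Klf2 shares were 78.5%, 74.3% and 76.0% in the same libraries. In thinned oligodendrocyte barcodes, which should lack Klf2, the share was 0.292% in ECiKO replicate 2 and 0 of 611 in GlastiKO replicate 2, which allows up to 0.491%, and 0 of 437 in control replicate 2, which allows up to 0.686%. Those oligodendrocytes come from libraries with few endothelial cells, so they do not bound free RNA in libraries numbered 1. There, mural barcodes held 0 CPM of Ctla2a in GlastiKO replicate 1 and 28.8 CPM in control replicate 1, against 1274 and 694 CPM in endothelial barcodes. Thinned shares were 38.0% to 40.4% for Klf4, 35.6% to 46.3% for Ctla2a, 19.2% to 23.4% for Nos3 and 19.7% to 30.2% for Thbd over the 3 libraries numbered 1. Apold1 was detected in 34.7% of barcodes of GlastiKO replicate 1, 18.9% of ECiKO replicate 1 and 13.5% of control replicate 1. Depp1 was detected in 10.45%, 5.69% and 3.53% of them in the same order of libraries, and Adamts9 in 8.31%, 1.80% and 1.62%. At the edge of the gate, Klf2 had 884 CPM in the 43 barcodes with 5 or 6 marker UMIs and 373 CPM in the 36 barcodes with 3 or 4.

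From cell to cell, Klf2, Klf4 and Apold1 had the 3 highest pairwise correlations of the 28 among the members. Correlations were taken across endothelial barcodes on log(1 + UMIs per 10000) within each of the 3 libraries with at least 100 endothelial barcodes and are descriptions, since barcodes of a library share its preparation and differ in depth. Klf2 and Klf4 had a mean Pearson r of 0.51 (0.45 to 0.57 over the 3 libraries), Klf4 and Apold1 0.29, and Klf2 and Apold1 0.28. Among the thinned barcodes the mean Spearman rho was 0.35 for Klf2 and Klf4 and 0.21 for Klf2 and Apold1. The other 25 pairs ranged from -0.05 for Klf2 and Adamts9 to 0.19 for Klf2 and Ctla2a. Nos3 and Thbd, the textbook KLF2 targets, had r = 0.08 and 0.16 with Klf2, and on thinned barcodes 0.01 and 0.05. Sparse counts lower such values, and nothing is read from weak ones.

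**Figure D2:**
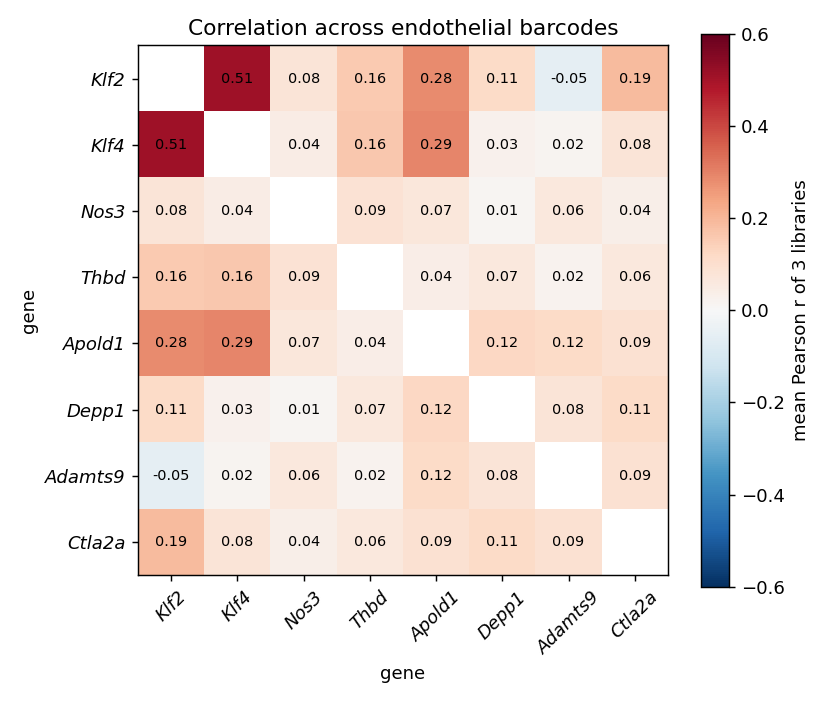
Both axes list the 8 genes. Each cell is the mean Pearson r of a gene pair across endothelial barcodes of the libraries numbered 1, on log(1 + UMIs per 10000), with red for positive values. Klf2 with Klf4 (0.51) stands highest, followed by Apold1 with Klf4 (0.29) and Klf2 (0.28).

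The genes most like each member were found among genes detected in at least 10% of endothelial barcodes. For Klf2 they were Fos (mean r = 0.53), Jun, Klf4, Junb and Jund, and for Klf4 they were Klf2 (0.51), Fosb, Fos, Junb and Jun. For Apold1 they were Nr4a1 (0.41), Fos, Fosb, Egr1 and Junb. These neighbours are immediate early genes, transcription factor genes switched on within minutes of a stimulus. Ctla2a was most like Tmsb10 (0.33), Gng11, Pglyrp1, Tmsb4x and Actb. Depp1 was most like Ankrd37 (0.23), Plk2, Egr1, Ets2 and Ier3, and Adamts9 was most like Sema6d (0.21), Nid2, Hspg2, Kdr and Ero1l. Thbd was most like Pltp (0.18), Ly6a, Podxl, Wfdc1 and Ly6c1, and Nos3 most like Vwa1 (0.13), Ywhaz, Agrn and Gpr146.

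Barcodes that gave over 2% of their UMIs to 17 immediate early genes carried much more of the 3 co-varying genes. They numbered 49 of 438 in GlastiKO replicate 1, 20 of 381 in ECiKO replicate 1 and 34 of 720 in control replicate 1. Klf2 reached 5043 CPM in these barcodes, against 1338 CPM in the rest of GlastiKO replicate 1. In ECiKO replicate 1 the Klf2 levels were 5273 and 1297 CPM, and in control replicate 1 they were 3810 and 1241 CPM, in the same order. The ratio between high and remaining barcodes over the 3 libraries was 3.07 to 4.07 for Klf2, 3.46 to 4.30 for Klf4 and 2.59 to 5.05 for Apold1. Depp1 followed with 1.72 to 2.74. Nos3, with ratios of 0.899 to 1.10, and Ctla2a, with 0.958 to 1.35, were nearly level between both kinds of barcodes, and Thbd had 0.945 to 1.63. Adamts9 had too few UMIs in the high barcodes for a direction: 79.8 CPM (18 UMIs), against 114 CPM in the rest of GlastiKO replicate 1, 0 UMIs in ECiKO replicate 1 and 2 UMIs in control replicate 1. The high barcodes were also deeper, with a median of 4830 UMIs, against 3165 in the rest of GlastiKO replicate 1. The share of UMIs in 10 heat shock genes also moved with these genes, with r of 0.47 to 0.51 for Klf2, 0.32 to 0.50 for Klf4 and 0.18 to 0.31 for Apold1 over the 3 libraries, against -0.004 to 0.001 for Nos3. Immediate early and heat shock genes can be induced during enzymatic digestion, and how much of the Klf2, Klf4 and Apold1 RNA arose there was not tested.

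**Figure D3:**
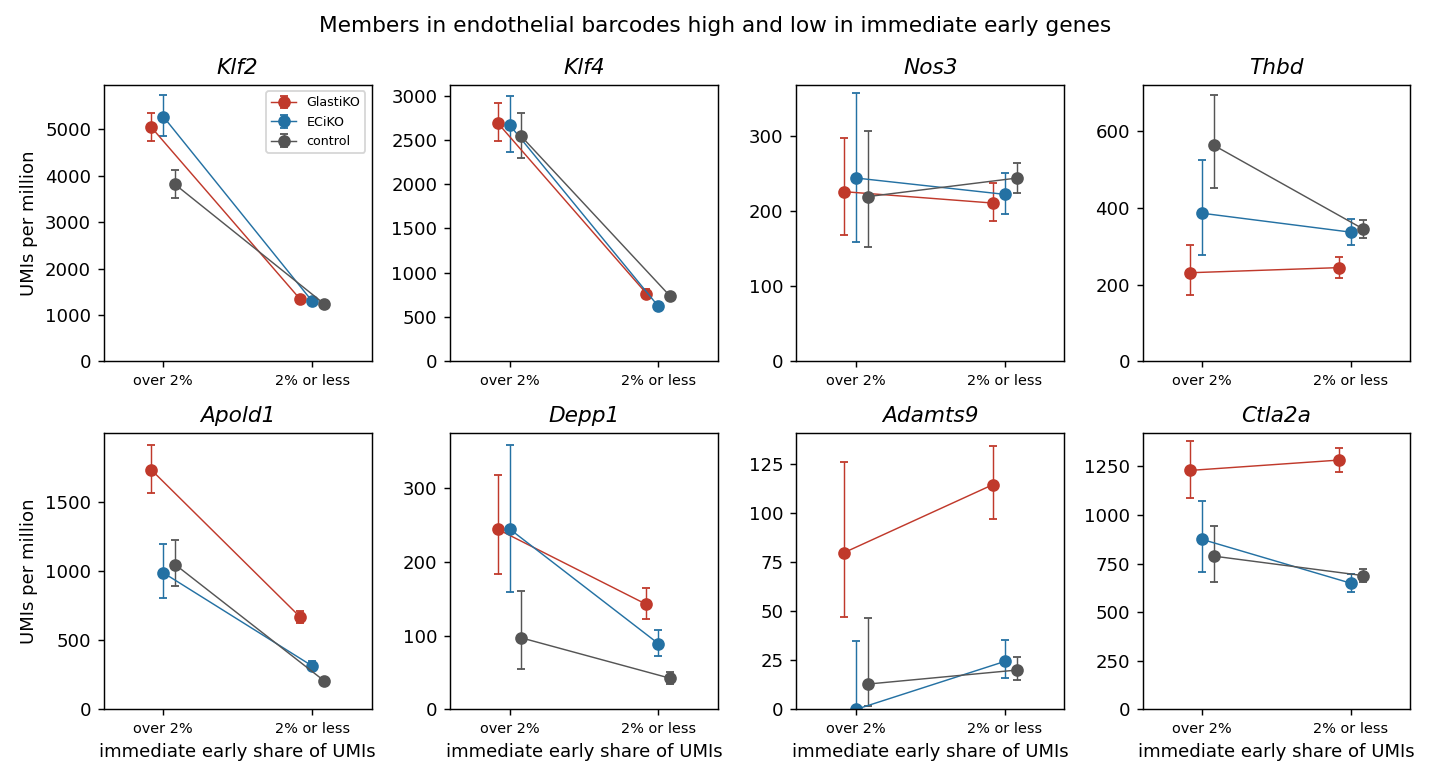
Each panel is 1 gene in the libraries numbered 1, with CPM on the vertical axis. Barcodes with over 2% of UMIs in immediate early genes are at the left and the rest at the right, with exact 95% Poisson intervals that cover counting error only. Klf2, Klf4 and Apold1 are lower at the right than at the left in all 3 libraries, while Nos3 stays between 211 and 244 CPM.

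In barcodes with Klf2, the companion genes were read again at equal depth. Klf4 was detected in 67.0% of the 91 thinned barcodes with 3 or more Klf2 UMIs and in 24.4% of the 172 with none in GlastiKO replicate 1. The Klf4 shares were 69.0% of 58 and 23.1% of 156 in ECiKO replicate 1, and 68.4% of 98 and 30.0% of 320 in control replicate 1. Apold1 was detected in 57.1% and 23.3% of the same barcodes of GlastiKO replicate 1, 34.5% and 11.5% of those of ECiKO replicate 1 and 26.5% and 10.6% of those of control replicate 1. Both genes were thus detected more often where Klf2 was higher, in all 3 libraries. So was Ctla2a, with 61.5% and 41.9% in GlastiKO replicate 1, 46.6% and 30.8% in ECiKO replicate 1 and 48.0% and 30.9% in control replicate 1. Thbd had 20.9% and 20.3% in GlastiKO replicate 1, 39.7% and 27.6% in ECiKO replicate 1 and 24.5% and 21.9% in control replicate 1. The 95% intervals of both Thbd shares overlapped in each library, so no direction is read for Thbd. They were 13.1% to 30.7% and 14.6% to 27.1% in GlastiKO replicate 1. In ECiKO replicate 1 they were 27.0% to 53.4% and 20.7% to 35.3%, and in control replicate 1 16.4% to 34.2% and 17.5% to 26.8%. Those of Ctla2a overlapped in ECiKO replicate 1 only. Nos3 was higher in some and lower in others, with 25.3% and 19.2% in GlastiKO replicate 1, 25.9% and 16.0% in ECiKO replicate 1 and 18.4% and 26.3% in control replicate 1. The median immediate early share was 1.52% and 0.148% in the same barcodes of GlastiKO replicate 1.

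Along the vessel tree, Klf4 was higher in both arterial and venous than in capillary endothelium and Ctla2a was lower in arterial endothelium. Zones were gated by markers: arterial and venous barcodes had at least 3 UMIs of their list and at least 2 times those of the other, and capillary barcodes had at least 3 capillary UMIs with at most 1 arterial and 1 venous UMI. The arterial list was Bmx, Gkn3, Sema3g, Cytl1, Stmn2, Efnb2 and Hey1, the venous list included Slc38a5, Nr2f2, Lcn2, Vwf, Ackr1 and Ctsc, and the capillary list was Mfsd2a, Rgcc, Tfrc, Car4, Spock2 and Slc16a1. This gate was set after barcode numbers were seen, because the planned one left 2 to 15 arterial or venous barcodes in libraries numbered 1. It gave 54 arterial, 116 venous and 184 capillary barcodes in GlastiKO replicate 1, 50, 88 and 158 in ECiKO replicate 1 and 103, 189 and 285 in control replicate 1. No library numbered 2 had 20 arterial or venous barcodes, so each genotype enters once, and zones were tested with the library as a block in edgeR over 7367 genes.

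Klf4 had 1201 CPM in arterial, 1433 in venous and 779 in capillary barcodes of GlastiKO replicate 1. The Klf4 levels were 980, 864 and 737 CPM in ECiKO replicate 1, and 896, 950 and 777 CPM in control replicate 1, in the same order. Both larger-vessel zones stood above capillaries in each library. The log2 fold change of Klf4 was 0.44 ± 0.12 for arterial against capillary barcodes (SE, adjusted p = 0.0118, edgeR) and 0.48 ± 0.11 for venous against capillary barcodes (adjusted p = 0.00625). DESeq2 did not call Klf4 (adjusted p = 0.123 arterial and 0.124 venous), and without GlastiKO replicate 1 the edgeR adjusted p was 0.213 and 0.534. Klf2 did not pass, at 0.25 ± 0.10 arterial (adjusted p = 0.141) and 0.28 ± 0.10 venous (adjusted p = 0.154). With the stricter zone gate of 5 UMIs venous Klf2 passed (0.40, adjusted p = 0.0146). When barcodes over 2% immediate early UMIs were left out, Klf2 passed in both, at 0.54 (adjusted p = 0.000828) and 0.47 (adjusted p = 0.00723).

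Ctla2a had 389 CPM in arterial, 1746 in venous and 1097 in capillary barcodes of GlastiKO replicate 1. The Ctla2a levels were 533, 797 and 695 CPM in ECiKO replicate 1, and 330.1, 802 and 737 CPM in control replicate 1. Arterial barcodes were lowest in all 3 libraries, and the log2 fold change against capillaries was -0.97 ± 0.15 (SE, adjusted p = 3.95e-06, edgeR), while DESeq2 gave -0.95 with an adjusted p of 0.103. Venous barcodes differed by 0.36 ± 0.13 (adjusted p = 0.179). In all, 2 of 8 members were called for arterial against capillary barcodes, where 6.08% of all genes were, and 1 of 8 for venous against capillary barcodes, where 2.21% were. Nos3, Thbd, Apold1, Depp1 and Adamts9 were not called in either, with log2 fold changes from -0.58 for venous Depp1 to 0.23 for arterial Apold1. Without control replicate 1, Depp1 was called lower in venous barcodes (-1.12, adjusted p = 0.00638, edgeR). Arterial and venous barcodes were deeper than capillary ones, with medians of 3833 and 4265 UMIs against 2643 in GlastiKO replicate 1. The gate caps other zone UMIs in capillary barcodes as absolute counts, which deep barcodes meet less easily. Across endothelial barcodes of the 3 libraries, r with log UMIs was 0.29 to 0.35 for Klf4 and for Ctla2a, and 0.36 to 0.45 for Klf2. The part of depth in the zone differences was not tested. The 17 immediate early genes summed to 7881 CPM in arterial and 10809 CPM in venous barcodes, against 7785 CPM in capillary barcodes of GlastiKO replicate 1, and to 6749 and 6703 CPM against 5060 CPM in control replicate 1. Their part in the zone differences was not tested.

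**Figure D4:**
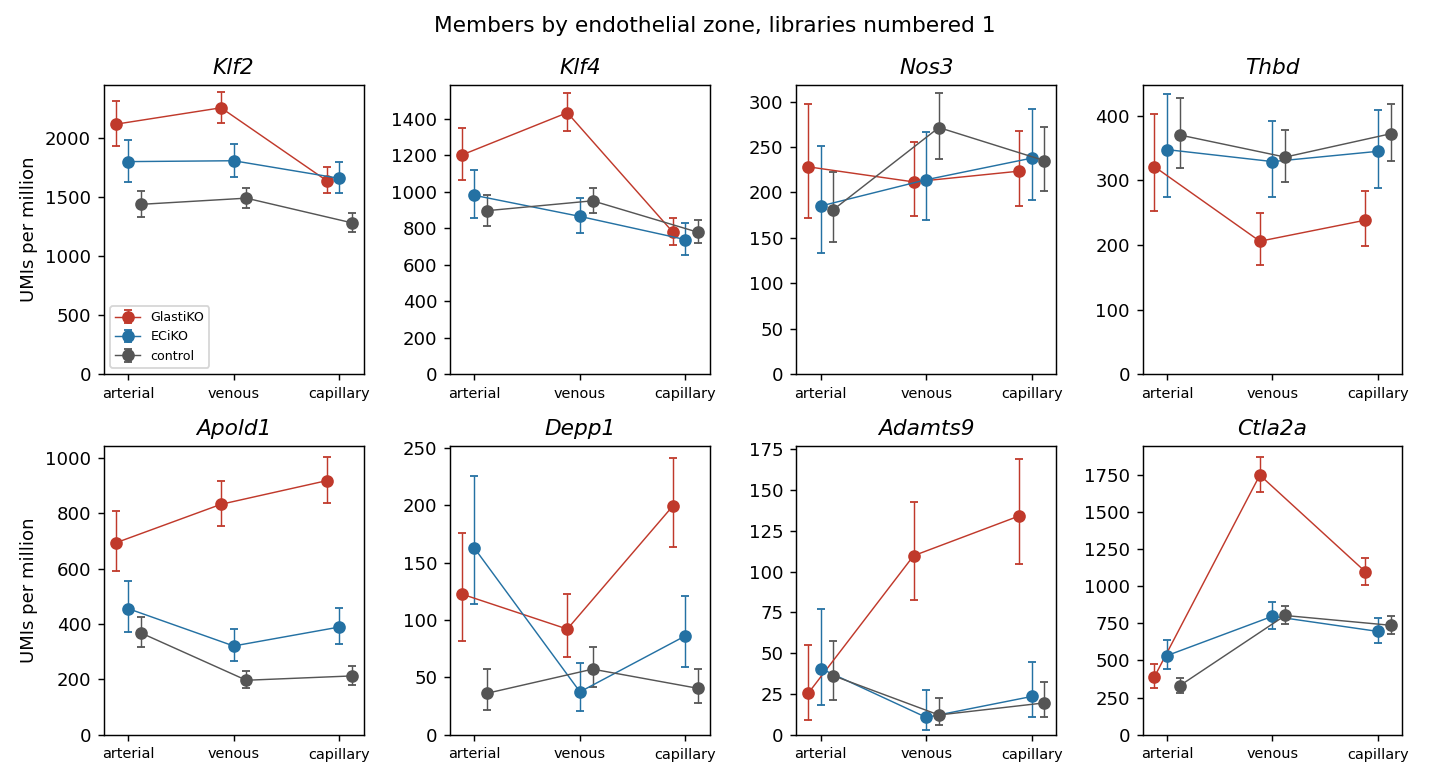
Each panel is 1 gene, with CPM in arterial, venous and capillary barcodes of the 3 libraries numbered 1 and exact 95% Poisson intervals. Klf4 is lowest in the capillary barcodes of each library and Ctla2a is lowest in the arterial ones. Thbd and Nos3 were not called but also vary. Nos3 has 181 CPM in arterial and 272 CPM in venous barcodes of control replicate 1. Thbd has 321 CPM in arterial and 206 CPM in venous barcodes of GlastiKO replicate 1.

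Other genes of the pathway were read in the same zones, against a background of 6.08% of genes called for arterial and 2.21% for venous barcodes and median log2 fold changes of 0.01 and 0.00 over all genes. Of 8 tested genes that laminar flow or KLF2 lowers, 3 were higher in arterial barcodes and 2 in venous barcodes, with median log2 fold changes of 0.13 and 0.11. Edn1, the vasoconstrictor endothelin 1, had 1.35 ± 0.13 in arterial barcodes (adjusted p = 2.11e-11), and Vcam1, a leukocyte adhesion receptor, passed in both zones; neither gene is in a zone gate list. Of 12 tested genes raised by flow or by KLF2 and KLF4, Gja4, the arterial connexin, was higher and Palmd lower in arterial barcodes, and 0 were called in venous ones, with medians of 0.24 and 0.01. Gja4 is in no gate list. Of 21 mechanosensing and MEKK3-ERK5-MEF2 genes, S1pr1, the sphingosine 1-phosphate receptor (0.58 ± 0.11), and Cdh5, VE-cadherin (0.41 ± 0.12), were higher in arterial barcodes, and Cdh5 is also a gate gene for endothelium. Of 16 immediate early genes, 4 were higher (Jun, Fosb, Fos and Nr4a1) and Ier3 was lower in arterial barcodes, and 7 were higher in venous ones, Jun and Junb among them, with medians of 0.28 and 0.32. Of 10 heat shock genes 1 was higher in arterial and 2 in venous barcodes, and of 9 FOXO factors and targets Sesn3 was lower in arterial barcodes.

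Between genotypes, Nos3 differed least, with 213 and 186 CPM in libraries labelled GlastiKO, 224 and 187 CPM in those labelled ECiKO and 243 and 229 CPM in controls. Its counting intervals overlapped in all libraries. Thbd had 242 and 199.8 CPM in libraries labelled GlastiKO, 340.3 and 347 CPM in those labelled ECiKO and 358 and 153 CPM in controls, so both control values enclosed the others. Klf2 had 1873 and 1670 CPM in libraries labelled GlastiKO, 1635 and 1066 CPM in those labelled ECiKO and 1394 and 1061 CPM in controls. Both libraries labelled GlastiKO were above both controls for Klf2, and those labelled ECiKO overlapped them. The share of all genes with such an order was not counted, so nothing is read from it, here or in the next paragraph. Klf4 had 1044 and 652 CPM in libraries labelled GlastiKO, 795 and 319.9 CPM in those labelled ECiKO and 841 and 849 CPM in controls. For Klf4 the libraries labelled GlastiKO fell on both sides of the controls, and both labelled ECiKO lay below both controls.

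Of the other 4 genes, Apold1 had 820 and 423 CPM in libraries labelled GlastiKO, 371 and 80.0 CPM in those labelled ECiKO and 257 and 263 CPM in controls. Depp1 had 157 and 80.9 CPM in libraries labelled GlastiKO, 102 and 26.7 CPM in those labelled ECiKO and 45.4 and 42.4 CPM in controls. Both were higher in each library labelled GlastiKO than in each control, while the libraries labelled ECiKO fell on both sides. Adamts9 had 109 and 14.3 CPM in libraries labelled GlastiKO, 22.4 and 0 CPM in those labelled ECiKO and 19.6 and 34.0 CPM in controls, so its high value was that of GlastiKO replicate 1. In that library 4 barcodes held 71 of 171 Adamts9 UMIs (41.5%). Ctla2a had 1274 and 918 CPM in libraries labelled GlastiKO, 668 and 586 CPM in those labelled ECiKO and 694 and 1265 CPM in controls. For Ctla2a GlastiKO and control overlapped, and both libraries labelled ECiKO lay below both controls. The 2nd library of each genotype gave few molecules: Depp1 rested on 17 UMIs in GlastiKO replicate 2, 1 in ECiKO replicate 2 and 5 in control replicate 2.

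**Figure D5:**
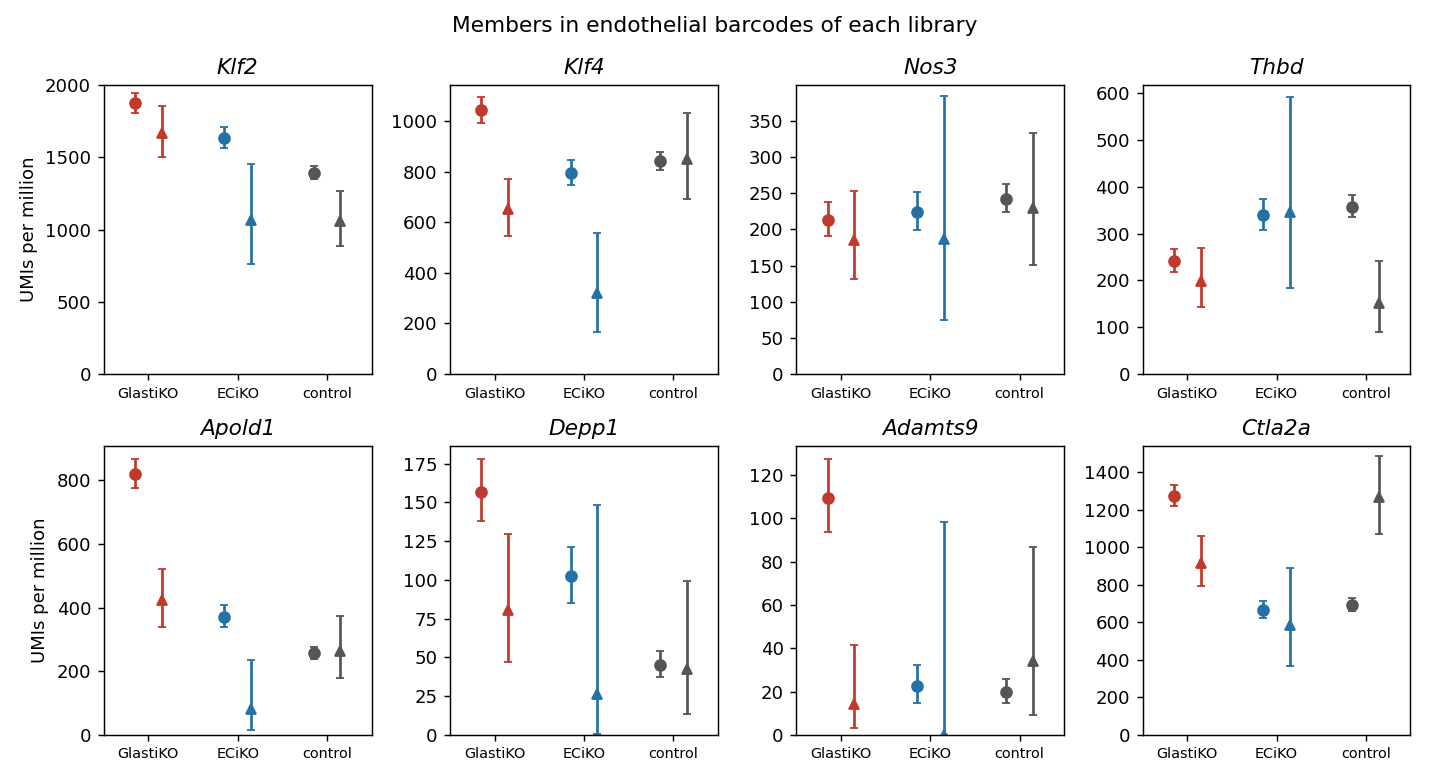
Each panel is 1 gene, with CPM in endothelial barcodes of the libraries labelled GlastiKO and ECiKO and of the controls. Circles are replicate 1 and triangles replicate 2, and bars are exact 95% Poisson intervals that cover counting error only. Apold1 and Depp1 sit above both controls in both libraries labelled GlastiKO, and Adamts9 only in replicate 1 (109 CPM).

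The members had been chosen with the comparison of GlastiKO and control known, so its values are a description. In the edgeR fit over 8669 genes, with 2 libraries per group and a spread mostly pooled over genes, log2 fold changes were 1.94 ± 0.41 for Adamts9, 1.59 ± 0.32 for Depp1 and 1.36 ± 0.28 for Apold1 (SE). They were 0.56 ± 0.28 for Klf2, 0.30 ± 0.28 for Ctla2a, 0.09 ± 0.28 for Klf4, -0.19 ± 0.28 for Nos3 and -0.31 ± 0.28 for Thbd. Adamts9, Depp1 and Apold1, 3 of 8 members, were called higher at an adjusted p under 0.05, where 0.104% of all genes were, and nothing is read from that count. DESeq2 called none of the 3. Within library number 1 the GlastiKO to control ratio was 5.58 for Adamts9, 3.45 for Depp1 and 3.19 for Apold1, and within number 2 it was 0.420, 1.91 and 1.61. Apold1 and Depp1 were no longer called without GlastiKO replicate 1 (log2 fold changes 0.68 and 0.80), and without it Adamts9 was too low to be tested. Without control replicate 1 none of the 3 was called (adjusted p = 0.999 for Adamts9, 0.817 for Depp1 and 0.503 for Apold1), and without control replicate 2 Apold1 was not (adjusted p = 0.173). Immediate early genes took 0.841% and 0.642% of endothelial UMIs in libraries labelled GlastiKO, 0.598% and 0.120% in those labelled ECiKO and 0.596% and 0.847% in controls. Without barcodes over 2% immediate early UMIs, log2 fold changes were 1.58 for Apold1, 1.59 for Depp1 and 1.93 for Adamts9. The part of immediate early genes in these differences was not tested. The astroglial marker list summed to 24.3 and 124 CPM in endothelial barcodes of the libraries labelled GlastiKO, against 9.23 and 67.9 CPM in controls. Astroglial barcodes of the libraries numbered 2 held 27.6 to 33.5 CPM of Adamts9. The part of astroglial RNA in the endothelial values was not tested.

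Of the libraries labelled ECiKO against controls, 0 of 8 members were called by edgeR, where 0.219% of all genes were. The largest log2 fold change was 1.08 ± 0.35 for Depp1 (SE, adjusted p = 0.438), with replicate 1 above and replicate 2 below both controls. Klf2 differed by 0.15, with a 95% interval of -0.41 to 0.72, Nos3 by -0.12 (-0.71 to 0.46), Thbd by 0.22 (-0.35 to 0.80), and Klf4 by -0.38 (-0.95 to 0.18). Apold1 differed by 0.26 (-0.33 to 0.85), Ctla2a by -0.56 (-1.14 to 0.02) and Adamts9 by 0.01 (-0.93 to 0.96). These intervals are wide, and a missing call does not show that a gene stayed level.

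The libraries labelled ECiKO were also set directly against those labelled GlastiKO, which tests whether the genotypes differ from each other. No member was called by edgeR, and 0% of all genes were (0 of 8669, with 164 at an unadjusted p under 0.05 and 0 called by DESeq2). Adamts9 had -1.92 ± 0.45 (adjusted p = 0.158, edgeR) and Apold1 -1.10 ± 0.29 (adjusted p = 0.312). For Adamts9 the groups overlapped, with 22.4 CPM in ECiKO replicate 1 and 14.3 CPM in GlastiKO replicate 2. Only GlastiKO replicate 1 was high, at 109 CPM. With the endothelial gate alone Adamts9 was called (-1.92, adjusted p = 0.0483, edgeR). A block by replicate number, for which the labels give no pairing, called both Adamts9 (-2.24) and Apold1 (-1.24). Leaving out 1 library gave -2.40 for Adamts9 without GlastiKO replicate 2 and -1.94 without control replicate 1. Without GlastiKO replicate 1 Adamts9 was too low to be tested. Apold1 was -3.28 without ECiKO replicate 1, where ECiKO is 1 library with 3 Apold1 UMIs that is assumed to vary like the other groups. Apold1 was -0.77 without ECiKO replicate 2 and -0.39 without GlastiKO replicate 1. Immediate early genes moved with these values: 0 of 16 tested lay above 0 here, with a median of -0.61 against -0.03 over all genes. Without barcodes over 2% immediate early UMIs, Apold1 had -0.82 (adjusted p = 0.999). For Apold1 both libraries labelled ECiKO, 371 and 80.0 CPM, lay below both labelled GlastiKO, 820 and 423 CPM. Ctla2a had -0.86 ± 0.29 and Thbd 0.54 ± 0.29, and neither was called, though their groups did not overlap. How many of all genes separate in this way with 2 libraries per genotype was not counted. Nothing is read from such separations. All 3 comparisons share libraries, so their values are not independent.

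The upstream and neighbouring genes of the pathway were read in GlastiKO and in ECiKO against control. Over all genes, 0.104% were called higher in GlastiKO and 0.219% were called in either direction in ECiKO. At such shares, lists this short would hold few calls or none, so nothing is read from their counts. Of 21 mechanosensing and MEKK3-ERK5-MEF2 genes, all tested, 0 were called in GlastiKO or in ECiKO against control, with medians of -0.07 and 0.02 against 0.00 and -0.03 over all genes. Kdr, the VEGF receptor that takes part in flow sensing, had 0.02 ± 0.28 in GlastiKO and -0.02 ± 0.29 in ECiKO, and S1pr1 had 0.39 ± 0.28 and 0.35 ± 0.29. Of 12 tested genes raised by flow, 0 were called in either, with Klf6, a related KLF factor, at 0.60 ± 0.28 in GlastiKO and Plat, tissue plasminogen activator, at 0.63 ± 0.28. Of 8 tested genes lowered by flow, only Angpt2, the TIE2 ligand angiopoietin 2, was called, at 2.03 ± 0.45 in GlastiKO (adjusted p = 0.00325) and 1.93 ± 0.48 in ECiKO (adjusted p = 0.0297, edgeR). Angpt2 was not called by DESeq2, nor without control replicate 1 (0.93 in GlastiKO and 0.81 in ECiKO) or GlastiKO replicate 1 (-0.65 and 1.91), nor in ECiKO without ECiKO replicate 1 (0.65), without Plvap, Esm1 and Igfbp3 barcodes (1.98, adjusted p = 0.164) or without barcodes over 2% immediate early UMIs (2.05, adjusted p = 0.070). Edn1, at 0.05 ± 0.28 and 0.06 ± 0.29, was not called. Of 16 immediate early genes, Egr3 was called in GlastiKO at 2.23 ± 0.45 (adjusted p = 0.000527) but not without GlastiKO replicate 1 (1.45), control replicate 1 (2.99) or barcodes over 2% immediate early UMIs (2.15, adjusted p = 0.267), nor by DESeq2, and Fos had -0.18 ± 0.28 there. In ECiKO 0 were called, though Egr3 was without ECiKO replicate 2 (1.88, adjusted p = 0.021), and Fos had -0.999 ± 0.29 (adjusted p = 0.184). Heat shock genes and FOXO targets gave 0 calls in both.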

How the data were processed

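The authors deposited raw UMI counts per gene and barcode of 6 libraries (10x Chromium 3′ v3.1), made with Cell Ranger 5.0.0 on mm10 per the labels' protocols and the file headers; per the submitters' processing notes, Cell Ranger 2.1.1 and Seurat 4 were used. UMI counts were used as deposited. The members and gene lists were chosen with earlier results of these data known. Barcodes with under 300 genes or over 20% mitochondrial UMIs were left out. Classes needed 5 marker UMIs and 2 times those of any other class, which also left out mixed barcodes, and no doublet caller was run. Levels are CPM of a class's summed UMIs with exact 95% Poisson intervals, and floors use 3 counts; PCR and cell sampling are not covered.

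Sums per library with at least 20 barcodes were tested with edgeR 4.0.16 in R 4.3.3 (filterByExpr, TMM scaling, quasi-likelihood F test, Benjamini-Hochberg adjustment at 0.05), with genotype as the term over all 6 libraries, or zone with the library as block over the 3 libraries numbered 1. The fits had 3 and 4 residual degrees of freedom. The ± values are standard errors, the absolute log2 fold change over the square root of F. DESeq2 1.42.0 and other gates, filters and left-out libraries were the alternatives. Scripts were tested on simulated counts. Zones used a gate added after the planned one left too few barcodes. The genotype p-values rest on a spread between libraries mostly pooled over genes, and the 2 libraries of a genotype differ in endothelial makeup. The zone p-values rest on how zone differences vary between the 3 libraries numbered 1. Either spread may be technical. From each list up to 4 genes of highest mean CPM and those that passed could be named, and 5 most alike genes for each member; 1 of these is not reported here. Medians of lists stand beside those of all tested genes. Python 3.11.15, numpy 2.4.6, scipy 1.17.1 and pandas 2.3.3 were used. Promoters are from RefSeq and gene positions from GENCODE M21.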

Additional observations from a re-analysis of the deposited data

How the results depend on the processing

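The endothelial sums of the libraries numbered 2 limit every genotype comparison: ECiKO replicate 2 held 37514 UMIs, and genes such as Depp1 or Adamts9 had 0 to 5 UMIs there and in control replicate 2. Of the members' log2 fold changes under other settings in the 4 comparisons other than GlastiKO against control, 354 kept their direction and side of the threshold, 10 passed where they had not, 7 no longer passed and 27 reversed, all of the reversed ones in values that had not passed. In GlastiKO against control 123 kept their direction and 4 did not: Klf4 was -0.39 and Ctla2a -0.043 without GlastiKO replicate 1, and Thbd was 0.69 and Ctla2a -0.075 without control replicate 1. Each cause was not tested.

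The numbers of called genes were 27 in GlastiKO against control, 19 in ECiKO against control, 0 in ECiKO against GlastiKO, 448 in arterial and 163 in venous against capillary barcodes. With DESeq2 they were 2, 2, 0, 169 and 48. Without barcodes carrying Plvap, Esm1 and Igfbp3 they were 9, 1 and 1 for the genotypes, in that order, and without barcodes over 2% immediate early UMIs 9, 3 and 0. With no low-count filter ECiKO against control gave 30.0 called genes, and with the endothelial gate alone ECiKO against GlastiKO gave 10.0. The stricter zone gate of 5 UMIs gave 260.0 venous calls. Leaving out 1 library at a time gave 6 to 34 calls in GlastiKO against control, 8 to 34 in ECiKO against control, 0 to 18 in ECiKO against GlastiKO, 232 to 391 arterial and 62 to 145 venous calls. GlastiKO against control had 12 calls without GlastiKO replicate 1, 6 without control replicate 1 and 17 without ECiKO replicate 1. ECiKO against control had 10.0 without ECiKO replicate 1, 33 without ECiKO replicate 2, 34 without GlastiKO replicate 2 and 8 without control replicate 1. ECiKO against GlastiKO had 18 without ECiKO replicate 1, 6 without GlastiKO replicate 1 and 1 without GlastiKO replicate 2 or control replicate 1. Arterial and venous calls were 237 and 87 without GlastiKO replicate 1 and 232 and 62 without control replicate 1.

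The labels give no pairing by replicate number, and deviations of same-numbered libraries correlated at only 0.09, 0.04 and 0.06, although libraries numbered 1 share an endothelial-rich makeup and the block lowered the biological coefficient of variation to 13.4%, against 17.6% without it. The replicate block gave 37, 28 and 3 called genes for GlastiKO against control, ECiKO against control and ECiKO against GlastiKO. In the last comparison it called Adamts9 (-2.24, adjusted p = 5.8e-05) and Apold1 (-1.24, adjusted p = 0.0042, edgeR), and in ECiKO against control it called Egr3 (1.75, adjusted p = 0.0127). With no replicate block, the zone fits called 264 arterial and 68 venous genes, and Klf4 was not among them (adjusted p = 0.139 and 0.169).

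Reversals in ECiKO against control were Apold1 at -0.070 and Adamts9 at -0.63 with DESeq2, and Adamts9 at -0.0030 with the gate alone. Leaving out 1 library gave Klf2 -0.44 to 0.49, Klf4 -1.61 to 0.017, Nos3 -0.58 to 0.011, Thbd -0.13 to 1.23, Apold1 -1.92 to 0.61, Depp1 -0.996 to 1.24 and Adamts9 -7.24 to 0.14. In ECiKO against GlastiKO it gave Klf4 -1.71 to 0.029, Nos3 -0.40 to 0.29 and Depp1 -2.58 to 0.26, and Nos3 was -0.0074 without Plvap, Esm1 and Igfbp3 barcodes. In arterial against capillary barcodes it gave Apold1 -0.10 to 0.56, Depp1 -0.49 to 0.49 and Adamts9 -1.19 to 0.87. There Depp1 was 0.093 and Adamts9 0.11 with DESeq2, and Depp1 was 0.21 with the zone gate of 5 UMIs. In venous against capillary barcodes Nos3 was -0.11 to 0.10 when 1 library was left out and -0.072 without barcodes over 2% immediate early UMIs, and Apold1 was 0.0077 with the zone gate of 5 UMIs.

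Co-expression of Klf2 and Klf4 was 0.45 without barcodes over 2% immediate early UMIs, and that of Klf2 and Apold1 was 0.22. Rank correlation on thinned counts lowered 16 of 28 pairs by more than their spread between libraries.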
